A study of Sus scrofa with 4 samples.

Results

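Chaperones bind unfolded proteins and help them reach their native shape, co-chaperones steer the chaperones, and foldases speed the slow steps of folding. The genes described here encode chaperones, co-chaperones and foldases of pig liver, other than 9 genes left out by name. They were the genes with a symbol beginning with HSP, DNAJ, CCT and a digit, PFDN, PDIA, FKBP, PPI and a capital letter, or BAG, and TCP1, STIP1, ST13 and CANX. HSPH1, HSP70.2, DNAJB1, HSPA8, HSPB1, HSP90AA1, HSPA5, HSP90B1, PDIA4 and the PPIP5K kinases were left out. This gave 80 genes with 126 probe sets, out of 6765 genes and 23999 probe sets, and no probe set used here carried AHSA1 as its only symbol. Each gene was represented by its brightest probe set, the one with the highest mean log2 signal. Of the 80 probe sets, 70 had a mean signal above 111, the median of all probe sets.

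The samples were livers of male crossbred pigs, (German Landrace x Large White) x Pietrain, aged 7 weeks. The carnitine group ate a basal diet with 500 mg/kg of added L-carnitine, the molecule that carries fatty acyl groups into mitochondria, and the control group ate the basal diet alone. Feeding lasted 21 days for both groups, and livers were taken 2.5 h after a meal. Each diet was given to 8 pigs, whose RNA was combined into 2 pools of 4 pigs, and a pool filled 1 single-colour Affymetrix porcine GeneChip. The deposited values are MAS5 signals, a background-corrected intensity per probe set on a linear scale. A log2 fold change is the mean log2 signal of the carnitine pools minus that of the control pools, and ± gives its standard error from limma (n = 2 pools per diet). The spread between the 2 pools of a group is the only measure of error, differences between single pigs cannot be seen, and with whole liver RNA fewer cells of a type and less RNA per cell cannot be told apart.

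In the cell, HSP70 binds short exposed stretches of a client protein, J-proteins (the DNAJ genes) bring clients to it, and nucleotide exchange factors such as the BAG proteins release them. HSP90 takes over clients such as steroid receptors from HSP70 through adaptors like STIP1, together with immunophilins, which are prolyl isomerases of the FKBP and cyclophilin (PPI) families. The ring-shaped chaperonin CCT folds actin and tubulin, which prefoldin delivers to it, and the PDIA enzymes form disulphide bonds in the endoplasmic reticulum, where the liver folds its many secreted proteins.

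The median signal of the arrays lay between 109 and 114. Markers of hepatocytes were bright on all arrays, where the sum over 7 of 7 listed genes reached 260566 and 233255 with carnitine, against 281762 and 259156 without. RNA quality was read from control probe sets at both ends of a transcript. For GAPDH the 3' signal exceeded the 5' signal 18.7- and 16.1-fold in carnitine pools against 12.5- and 11.6-fold in controls, and for actin 157- and 136-fold in carnitine pools against 91.2- and 86.7-fold in controls, so that both ratios were higher in both carnitine pools. For EF1A the excess was 23.4- and 29.6-fold in carnitine pools against 57.9- and 18.2-fold in controls, and control pool 1 was the highest. The summed signal of 6 stellate cell and fibroblast markers was 2508 and 2316 with carnitine against 1604 and 8371 without, and that of 5 endothelial markers 2589 and 1625 with carnitine against 1809.7 and 3548 without, with control pool 2 the highest in both. For 7 T and NK cell markers the sums were 1028 and 874 with carnitine against 1592 and 1045 without, and for 5 macrophage markers 3403 and 2744 with carnitine against 3862 and 3774 without. The 2 B and plasma cell markers summed to 1589.6 and 1862 with carnitine against 2753 and 1520.5 without. Markers of cholangiocytes (3 genes) gave 359 and 399 with carnitine against 318 and 1117 without, and those of red cells (3 genes) 1163 and 746 with carnitine against 1429 and 2018 without. The part of RNA quality and of these cells in the differences below was not tested.

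More of these genes had higher than lower signals in the carnitine group. Those higher at an unadjusted p under 0.05 in limma were HSP70, DNAJA, DNAJB, CCT, FKBP and cyclophilin genes and STIP1. The DNAJC, BAG, HSPB and prefoldin families, HSPD1 with HSPE1, and PDIA with calnexin had none. Of the 80 genes, 52 lay above 0 and 28 below 0 in log2 fold change, and the median was 0.13. Over the 6765 genes the median was -0.0089. Above 0 lay 49.1% of these genes, 48.6% of all probe sets and 50.2% of the 5039 genes above the median signal. These 5039 genes were not matched further to the signals of the members. No member passed an adjusted p of 0.05 in limma, with p-values adjusted over all 23999 probe sets, of which 0.0% were called lower and 0.00417% higher. At an unadjusted p under 0.05, 16 genes (20.0%) were higher and 3 (3.75%) lower in the carnitine group, while over all genes 6.56% were higher and 3.99% lower, and over all probe sets 4.72% and 3.93%. The one-factor analysis of variance named in the methods, without moderation of the variance, gave 7 higher and 2 lower by unadjusted p (under 0.05), beside 3.56% and 3.45% of all probe sets, and 0 after adjustment. The paper itself defined its differentially expressed probe sets by fold change.
Both carnitine pools lay above both control pools for 29 of the 80 genes (36.2%) and below them for 10 (12.5%), against 21.5% and 21.0% of all genes and 19.2% and 20.4% of all probe sets. Of the 70 brighter members 26 lay above and 10 below, beside 23.7% and 21.6% of the 5039 genes above the median signal. Among these 70 members 15 were higher and 3 lower by unadjusted p (under 0.05), beside 7.98% and 4.37% of the same 5039 genes. The number higher was 8 omitting carnitine pool 1 and 5 omitting carnitine pool 2, when 2.62% and 1.49% of all probe sets were higher, and it was 9 without the trend of the variance, when 3.54% were. The number lower was 5 omitting control pool 1 and 1 without the trend, when 5.37% and 3.48% of all probe sets were lower. The median of the 80 genes was 0.088 omitting carnitine pool 2, 0.25 omitting carnitine pool 1 and 0.22 omitting control pool 2.

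**Figure D1:**
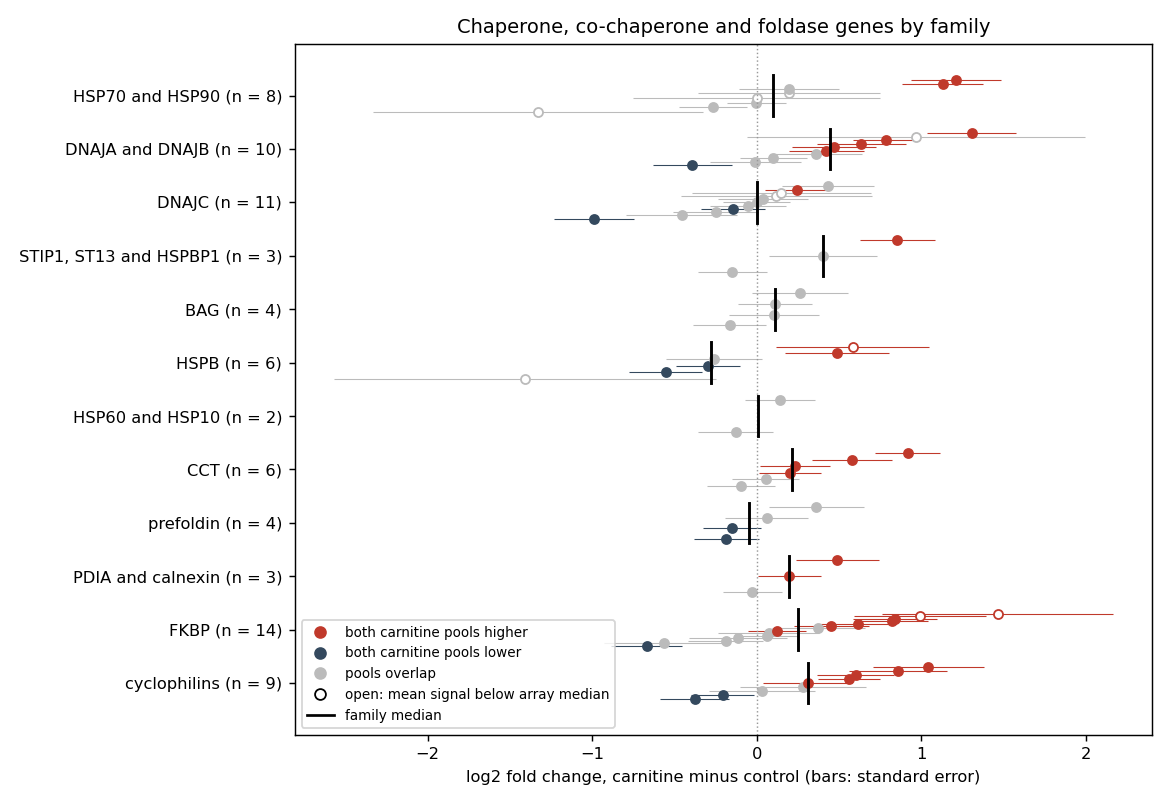
Log2 fold change of 80 genes (x axis, carnitine minus control, bars for the standard error) by family (y axis), with red points where both carnitine pools were above both control pools, dark points where both were below, grey points where pools overlapped, and a black line at the family median. The DNAJA and DNAJB family has the median farthest to the right, at 0.45, and the HSPB family the one farthest to the left, at -0.28.

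Among the HSP70 and HSP90 genes, HSPA13 and HSPA14 had higher signals in both carnitine pools, and on the brightest probe sets the groups overlapped for the other members. HSPA13, an HSP70 of the microsomes that lacks the client-binding domain, had signals of 1437 and 1755 in carnitine pools against 867 and 606 in controls (1.13 ± 0.25 log2, adjusted p = 0.345). HSPA14 forms a complex with the J-protein DNAJC2 at the ribosome, where it helps new chains to fold. Its signals were 402 and 502 in carnitine pools against 175 and 215 in controls (1.21 ± 0.28 log2, adjusted p = 0.359). In both genes each carnitine pool was above each control pool, and neither gene passed the adjusted p. HSP90AB1, the constitutive HSP90 of the cytosol, gave 6702 and 7762 in carnitine pools against 7631 and 9844 in controls (-0.27 ± 0.21 log2), with the groups overlapping. The mitochondrial HSP70, HSPA9, had signals of 9363 and 9615 with carnitine against 9202 and 9819.9 without (log2 fold change -0.0026). That probe set is of a kind shared between transcripts, and the next brightest of the gene gave 1615 and 1999 with carnitine against 1189 and 1480.3 without (0.44 ± 0.22 log2), both carnitine pools being the higher. HSPA4, an exchange factor of the HSP110 group, gave 676 and 933 with carnitine against 897 and 536 without (0.20 ± 0.31 log2). Its next brightest probe set separated the groups, at 358 and 363 with carnitine against 234 and 261 without (0.54 ± 0.25 log2). HSPA2, HSPA6 and HSPA12A were dim, with signals from 6.31 to 123 over the 4 arrays, and their pools overlapped. Sequences of the cytosolic HSP70 and HSP90 genes are close to each other, so that probe sets may take up signal of a paralog. Over the 8 genes the median was 0.10, and it turned to -0.029 omitting carnitine pool 2 and was 0.22 omitting carnitine pool 1 and 0.046 omitting control pool 2. Over the 5 brighter genes it was 0.20.

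J-proteins of the DNAJA and DNAJB groups, most of which resemble the bacterial protein DnaJ and hand clients to HSP70, lay mainly above 0. Of 10 such genes 8 lay above 0, 5 were higher and 1 lower in both carnitine pools, and 3 higher and 0 lower by unadjusted p (under 0.05), with a median of 0.45. Over all genes 49.1% lay above 0, and both carnitine pools were higher for 21.5% and lower for 21.0%. By unadjusted p in limma (under 0.05), 6.56% of all genes were higher and 3.99% lower. DNAJA1, a main J-protein partner of cytosolic HSP70, had signals of 1258 and 1980.2 in carnitine pools against 575 and 708 in controls, a 2.47-fold difference (1.31 ± 0.27 log2, adjusted p = 0.333). A further probe set of DNAJA1 had 637 and 749 with carnitine against 279.5 and 331 without (1.18 ± 0.24 log2), close to the first. The adjusted p of DNAJA1 was the lowest of the 80 genes.
DNAJB2, a J-protein that binds ubiquitin chains, had 1001 and 1140.2 in carnitine pools against 634 and 603 in controls (0.79 ± 0.20 log2, adjusted p = 0.399). The J-protein DNAJB9 assists the HSP70 of the endoplasmic reticulum and gave 1310.3 and 1654 in carnitine pools against 1189 and 754 in controls (0.64 ± 0.27 log2, adjusted p = 0.577). Its further probe sets went the other way, with 1357 and 854 with carnitine against 2326 and 641 without and 455 and 229.6 with carnitine against 626 and 302 without (log2 fold change -0.18 and -0.43), and control pool 1 was the highest of the 4 pools in both. Without control pool 2 the log2 fold change of the brightest probe set was 0.31. DNAJA2, a close relative of DNAJA1, had 769.7 and 801 with carnitine against 668 and 513 without (0.42 ± 0.23 log2). For DNAJB14, a J-protein of the endoplasmic reticulum membrane, the values were 374 and 338 with carnitine against 270.2 and 244 without (0.47 ± 0.25 log2).
DNAJB4 was the member of this group with lower signals in both carnitine pools, at 1483 and 988 in carnitine pools against 1579 and 1600.1 in controls (-0.39 ± 0.24 log2). DNAJA3, the J-protein of mitochondria, was nearly level at 1632 and 1561 with carnitine against 1665 and 1329.6 without (log2 fold change 0.10). DNAJB6, which keeps proteins from aggregating, had 592 and 525 with carnitine against 703 and 448 without on its brightest probe set (-0.0097 ± 0.28 log2), while 2 further ones gave 372 and 487 with carnitine against 276 and 262 without and 249.5 and 291 with carnitine against 194 and 149.7 without (0.66 and 0.66 on the log2 scale). DNAJA4 was dim and the pools of DNAJB11 overlapped. The family median was 0.27 omitting control pool 2 and 0.58 omitting control pool 1.

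DNAJC proteins share only the J-domain and serve particular machines. In contrast to the DNAJA and DNAJB genes they were spread around 0, with 5 of 11 above 0, 1 higher and 2 lower in both carnitine pools, 0 higher and 1 lower by unadjusted p (under 0.05) and a median of -0.00049. This difference between the families was not tested. Of all genes, 49.1% lay above 0, and both carnitine pools were higher for 21.5% and lower for 21.0%. By unadjusted p in limma (under 0.05), 6.56% of all genes were higher and 3.99% lower. With the mean over probe sets the medians were 0.12 for DNAJC and 0.41 for DNAJA and DNAJB. Further probe sets of DNAJC8 (0.86 log2) and, dim ones, of DNAJC11 (0.94) and DNAJC14 (0.78) were higher in both carnitine pools. A dim one of DNAJC3 (-1.45 log2) was lower in both. DNAJC19, a subunit of the motor that pulls proteins into the mitochondrial matrix, had the lowest log2 fold change of the brighter members, with 857 and 903 in carnitine pools against 2131 and 1429.6 in controls (-0.99 ± 0.24 log2, adjusted p = 0.395). DNAJC2, the partner of HSPA14 at the ribosome, had 511 and 769 with carnitine against 516 and 417 without on its brightest probe set (0.43 ± 0.28 log2), where the pools overlapped. On its other probe set both carnitine pools were higher, at 489 and 647 with carnitine against 298 and 279 without (0.96 ± 0.25 log2, adjusted p = 0.399). DNAJC11, a protein of the mitochondrial membranes, gave 1220.3 and 1242 with carnitine against 973 and 1105 without (0.25 ± 0.19 log2), and DNAJC24, which acts in the modification of an elongation factor, 965 and 1040.2 with carnitine against 1163 and 1056 without (log2 fold change -0.15). For DNAJC14 the groups overlapped at 273 and 311 with carnitine against 542 and 295 without (-0.46 ± 0.34 log2), and for DNAJC8, a splicing protein, the log2 fold change was -0.00049 with a standard error of 0.20. Without carnitine pool 2 the median of the family was -0.20.

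Adaptors and exchange factors of HSP70 differed among themselves. STIP1, which links HSP70 to HSP90 and passes clients between them, had signals of 978 and 1116 in carnitine pools against 507 and 659.5 in controls (0.85 ± 0.23 log2, adjusted p = 0.401), with each carnitine pool above each control pool. ST13, which binds HSP70 in its client-holding state, was not higher, at 7469.8 and 7605 with carnitine against 9676 and 7218 without (-0.15 ± 0.21 log2). HSPBP1, an exchange factor, gave 203 and 261 with carnitine against 206 and 147 without (0.40 ± 0.33 log2), and its carnitine pool 1 lay just below control pool 1. Over the 3 genes the median was 0.40, with 0.65 omitting control pool 1, 0.16 omitting control pool 2 and 0.22 omitting carnitine pool 2.
BAG proteins release clients from HSP70, and the brightest probe sets of the 4 measured did not separate the groups. BAG3, which sends HSP70 clients to autophagy, had 1046 and 1202 with carnitine against 706 and 1239 without (0.26 ± 0.29 log2). BAG1 had 1286 and 1461 with carnitine against 1091 and 1475 without (0.11 ± 0.22 log2), BAG5 291 and 239 with carnitine against 235 and 255 without (0.10 ± 0.28 log2) and BAG6, which handles membrane proteins on their way to the membrane, 677 and 658 with carnitine against 837 and 669 without (-0.17 ± 0.22 log2). A dim probe set of BAG6 went the other way and separated the groups, at 97.3 and 99.3 with carnitine against 59.6 and 19.5 without (1.53 ± 0.63 log2, adjusted p = 0.561). Control pool 1 was the lowest pool for BAG1, BAG3 and BAG5. The median was 0.11, -0.054 omitting control pool 1 and 0.25 omitting control pool 2.

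FKBP genes encode prolyl isomerases, and 10 of the 14 measured had a log2 fold change above 0, with 7 higher and 1 lower in both carnitine pools. Of all genes 49.1% lay above 0, and 21.5% were higher and 21.0% lower in both carnitine pools. At an unadjusted p under 0.05, 4 FKBP genes were higher and 1 lower, beside 6.56% and 3.99% of all genes. The family median was 0.25. It was 0.10 over the 12 genes above the median signal, which leaves out FKBP6 and FKBP7, and 0.37 without FKBP15. FKBP1B, a small protein that binds calcium release channels, had 865 and 842 in carnitine pools against 538 and 434 in controls (0.82 ± 0.22 log2, adjusted p = 0.402). FKBP14 works in the endoplasmic reticulum, where it acts on collagens, and its signals were 1049.8 and 1409 in carnitine pools against 577 and 797 in controls (0.84 ± 0.26 log2, adjusted p = 0.446). Further probe sets of FKBP14 gave 482 and 489 with carnitine against 292 and 322 without and 115 and 121 with carnitine against 53.9 and 49.9 without, with log2 fold changes of 0.66 and 1.18, so that all 3 probe sets of the gene separated the groups. FKBP7, of the same compartment, was dimmer, at 130.3 and 146 with carnitine against 58.2 and 82.3 without (0.99 ± 0.40 log2).
FKBP5 and FKBP4 sit on HSP90 in steroid receptor complexes, and FKBP5 is a gene that glucocorticoids switch on. FKBP5 had 1000.0 and 1184 in carnitine pools against 619 and 813 in controls (0.62 ± 0.23 log2, adjusted p = 0.524). FKBP4 had 1092 and 1257 in carnitine pools against 737 and 994 in controls (0.45 ± 0.23 log2), a smaller difference that did not reach an unadjusted p under 0.05. FKBP15, a protein of endosomes whose isomerase activity is doubtful, was lower in the carnitine group, at 456 and 412 in carnitine pools against 674 and 705 in controls (-0.67 ± 0.22 log2, adjusted p = 0.466). A dim further probe set of FKBP15 was higher in both carnitine pools, at 44.9 and 86.8 with carnitine against 33.6 and 40.8 without (0.75 log2). On another dim one the pools overlapped (-0.57 log2). With the mean over probe sets the log2 fold change of FKBP15 was -0.16.
FKBP1A, the target of the drug FK506, was nearly level at 2133 and 2255 with carnitine against 2246 and 1970.3 without (log2 fold change 0.060). Of the remaining enzymes of the endoplasmic reticulum, FKBP2 gave 5668 and 4114 with carnitine against 4959 and 6113 without (-0.19) and FKBP11 5192 and 5550.4 with carnitine against 4820.0 and 5045 without (0.12). FKBP10, a collagen chaperone, had 195 and 138 with carnitine against 190.5 and 308 without (-0.57 ± 0.36 log2). Its highest signal was in control pool 2, which also had the highest stellate cell and fibroblast sum. Of the collagen markers in that sum, COL1A2 was lowest in control pool 2 (411 and 362 with carnitine against 541 and 345 without). The dim COL3A1 was highest in carnitine pool 2 (101 and 219 with carnitine against 21.4 and 121 without). A link of FKBP10 to these cells was not tested. The dim FKBP6, known from germ cells, had 45.3 and 29.8 with carnitine against 17.5 and 10.1 without. FKBP3, FKBP8 and FKBP9 overlapped between the groups. Left out singly, pools moved the family median to 0.14 omitting carnitine pool 2, 0.44 omitting carnitine pool 1 and 0.50 omitting control pool 2.

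Cyclophilins, the other family of prolyl isomerases, had 7 of 9 genes above 0, beside 49.1% of all genes, and a median of 0.31. At an unadjusted p under 0.05, 4 were higher and 0 lower, beside 6.56% and 3.99% of all genes. PPIF, the cyclophilin of mitochondria that regulates the permeability transition pore, had 1937 and 3928 in carnitine pools against 1521 and 1177 in controls (1.04 ± 0.34 log2, adjusted p = 0.466). Carnitine pool 2 was 2.03-fold above carnitine pool 1 here, and the log2 fold change was 0.53 without it. PPID, or cyclophilin 40, binds HSP90 through the same kind of domain as STIP1 and FKBP5. Its signals were 3750.5 and 3518 in carnitine pools against 1457 and 2749 in controls (0.86 ± 0.30 log2, adjusted p = 0.493), the carnitine pools close together and the control pools 1.89-fold apart, and the log2 fold change was 0.40 omitting control pool 1.
PPIG and PPIL1 are nuclear cyclophilins of the splicing machinery. PPIG had 1413 and 1470.5 in carnitine pools against 1017 and 937 in controls (0.56 ± 0.19 log2, adjusted p = 0.480), and PPIL1 had 497 and 468 in carnitine pools against 325 and 309.9 in controls (0.60 ± 0.23 log2, adjusted p = 0.535). In both genes the pools of a group lay close together and the groups apart. PPIL3, which is found in the same machinery, went the other way, with 767 and 713 with carnitine against 1048 and 877 without (-0.38 ± 0.21 log2). PPIH, PPIE and PPIL2, also of the spliceosome, had log2 fold changes of 0.31, 0.28 and 0.035, and only PPIH separated the groups. PPIA, the abundant cyclophilin of the cytosol, gave 11635 and 11227 in carnitine pools against 14326 and 12138 in controls (-0.21 ± 0.19 log2). It has many processed copies in mammalian genomes, so that its probe set may not be specific. The median of the family was 0.18 omitting control pool 1, 0.56 omitting carnitine pool 1 and 0.50 omitting control pool 2.

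**Figure D2:**
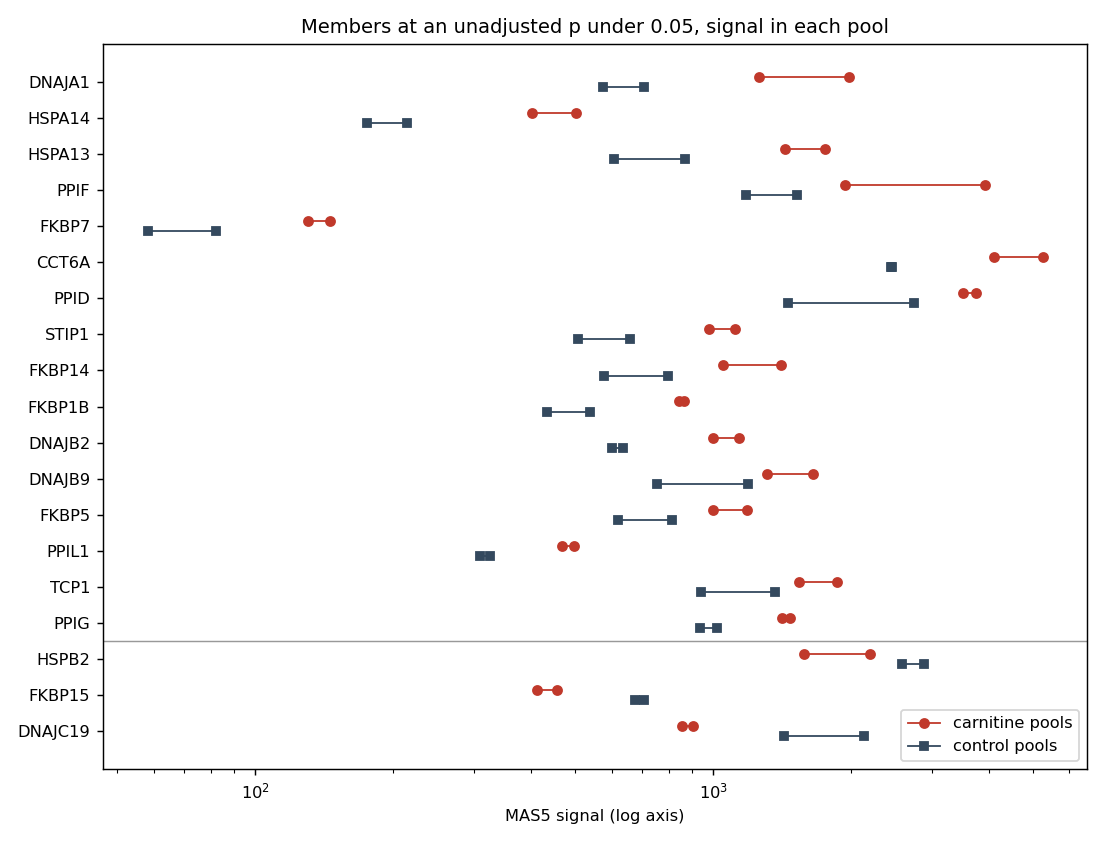
Signal of the 19 members at an unadjusted p under 0.05 in each pool (x axis, MAS5 signal on a log axis), with red circles for the carnitine pools, dark squares for the control pools and a line joining the pools of a group. The 16 genes above the horizontal line were higher and the 3 below it lower in the carnitine group, and no circle overlaps the squares of its gene.

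Subunits of the chaperonin CCT had small differences except for CCT6A and TCP1. CCT6A, the zeta subunit, had 4102 and 5244 in carnitine pools against 2458 and 2449 in controls, a 1.89-fold difference (0.92 ± 0.20 log2, adjusted p = 0.342), and its control pools were nearly equal. The bright further probe set gave 1123 and 1849.8 with carnitine against 536 and 783 without (1.15 ± 0.31 log2, adjusted p = 0.399). TCP1, the alpha subunit, had 1541 and 1867 in carnitine pools against 940.1 and 1368 in controls (0.58 ± 0.24 log2, adjusted p = 0.575). The subunits CCT4 and CCT2 were higher in both carnitine pools by less, with 1569.7 and 2107 with carnitine against 1559.9 and 1538 without (0.23 ± 0.21 log2) and 3168 and 3651 with carnitine against 2822 and 3100.4 without (0.20 ± 0.19 log2). CCT7 and CCT8 overlapped between the groups, at -0.10 and 0.056 on the log2 scale. Of the 6 genes 4 were higher in both carnitine pools, beside 21.5% of all genes. The median was 0.22, 0.067 omitting carnitine pool 2 and 0.37 omitting carnitine pool 1.
Prefoldin, which delivers actin and tubulin to CCT, had a median of -0.046 over 4 genes. PFDN6 gave 2793 and 2739 in carnitine pools against 3037 and 3109 in controls (-0.15 ± 0.18 log2) and PFDN5 989 and 1112 in carnitine pools against 1131 and 1255 in controls (-0.18 ± 0.20 log2), both slightly lower in both carnitine pools. PFDN1 had 1459 and 1753 with carnitine against 945 and 1638 without (0.36 ± 0.29 log2) and PFDN4 463 and 538 with carnitine against 552 and 415 without (0.061 ± 0.25 log2), with overlapping pools. The median was 0.035 omitting carnitine pool 1, and between -0.093 and -0.12 without another pool. VBP1, a prefoldin subunit whose symbol the rule did not take, had 1091 and 1039.5 with carnitine against 573 and 853 without (0.61 ± 0.25 log2).

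Small heat shock proteins hold unfolding proteins without ATP and are best known from muscle. Their median was -0.28 over 6 genes, and it lay between -0.39 omitting control pool 1 and -0.065 omitting control pool 2, with -0.14 and -0.17 omitting carnitine pools 1 and 2. Of the 6, 2 were higher and 2 lower in both carnitine pools, beside 21.5% and 21.0% of all genes. Only HSPB2 had an unadjusted p under 0.05, beside 6.56% of all genes higher and 3.99% lower at that p. Its signals were 2203 and 1577 in carnitine pools against 2883 and 2589 in controls (-0.55 ± 0.22 log2, adjusted p = 0.554). In the RefSeq gene table HSPB2 lies next to CRYAB, a small heat shock gene outside the rule, which had 2057 and 2530.4 with carnitine against 3021 and 1597 without (log2 fold change 0.054) and did not separate the groups. HSPB6 had 1282 and 1104 in carnitine pools against 1448 and 1470.5 in controls (-0.29 ± 0.19 log2). HSPB8, which works with BAG3, gave 1263 and 1083 with carnitine against 1052 and 1866 without (-0.26 ± 0.29 log2), the highest signal being that of control pool 2. HSPB7 and HSPB3 were dim, with log2 fold changes of 0.58 and -1.41 and standard errors of 0.47 and 1.16. HSPB11 carries the family's letters but is a subunit of the transport trains of cilia, and it gave 246 and 317 with carnitine against 235 and 168 without (0.49 ± 0.31 log2).

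The folding chamber of the mitochondrial matrix, HSPD1 with its lid HSPE1, did not separate the groups. HSPD1 had 14227 and 18589 in carnitine pools against 14003 and 15544 in controls (0.14 ± 0.21 log2), and HSPE1 11917 and 13154 in carnitine pools against 16363 and 11446 in controls (-0.13 ± 0.23 log2). These genes are neighbours in the gene table. With 2 genes on opposite sides of 0 their median was 0.0061, and it ranged from -0.13 omitting carnitine pool 2 to 0.14 omitting carnitine pool 1.
Calnexin and PDIA3 fold glycoproteins together in the endoplasmic reticulum. PDIA3 had 10159 and 8928 in carnitine pools against 5407 and 8499 in controls (0.49 ± 0.25 log2, adjusted p = 0.641), with control pool 1 the lowest, and a further probe set gave 413 and 395 with carnitine against 248 and 323 without (log2 fold change 0.51). PDIA6, another disulphide isomerase, had 8725 and 7713 in carnitine pools against 6648 and 7695 in controls (0.20 ± 0.19 log2). CANX, which encodes calnexin, was level at 8068 and 8411 in carnitine pools against 8411 and 8367 in controls (-0.026 ± 0.18 log2), and its next brightest probe set gave 6338 and 6512 with carnitine against 6882 and 6562 without (-0.065). The median of the 3 genes was 0.20, 0.092 omitting control pool 1, 0.11 omitting carnitine pool 1 and 0.30 omitting control pool 2.

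**Figure D3:**
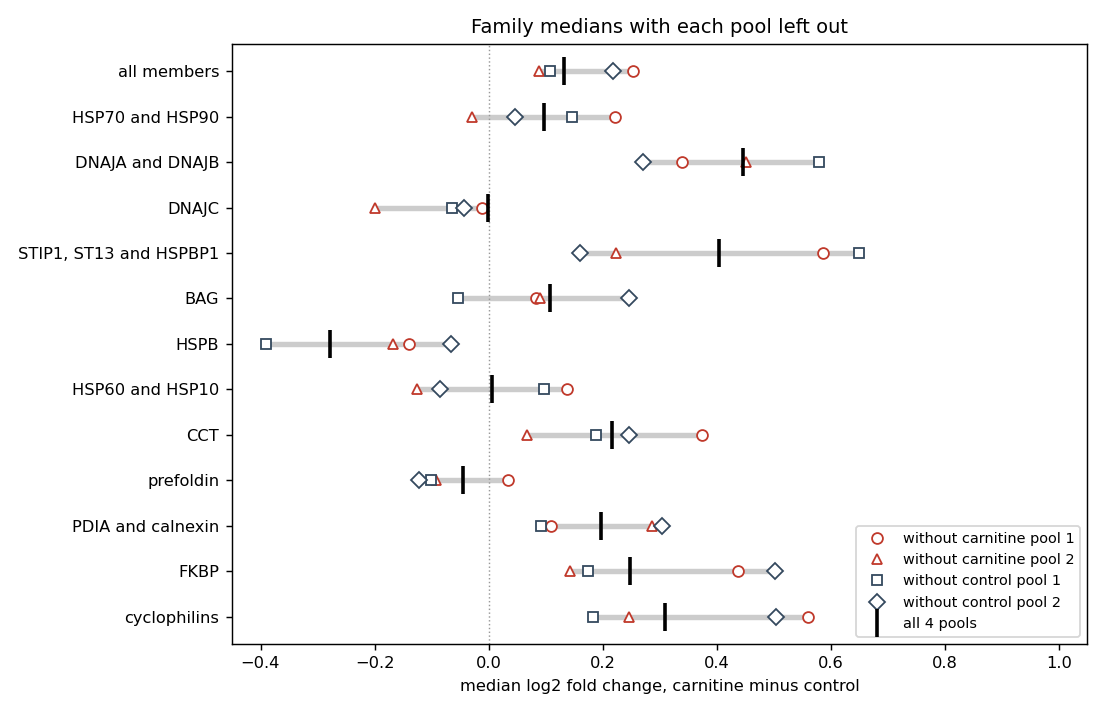
Median log2 fold change (x axis, carnitine minus control) of all 80 members and of each family (y axis), with a black tick for all 4 pools, red symbols where a carnitine pool and dark symbols where a control pool was left out. For all members the medians lie between 0.088 and 0.25, and those of the DNAJC and HSPB families stay below 0.

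Genes can also be grouped by where their proteins are known to work, which the rule did not use. This grouping was made after the values were seen and has no test. The endoplasmic reticulum houses 15 of the members, of which 8 were higher and 0 lower in both carnitine pools, beside 21.5% and 21.0% of all genes. By unadjusted p (under 0.05) 4 were higher and 0 lower, beside 6.56% and 3.99% of all genes. The 4 were HSPA13, FKBP14, the dim FKBP7 and DNAJB9, whose further probe sets went the other way (-0.18 and -0.43 log2). The median was 0.20, with 0.092 omitting control pool 1 and 0.30 omitting control pool 2. The 8 mitochondrial genes had a median of 0.049, with PPIF at 1.04 and DNAJC19 at -0.99 at the ends and the bright HSPA9, HSPD1 and HSPE1 within 0.14 of 0. It was 0.11 omitting carnitine pool 1, -0.037 omitting carnitine pool 2, 0.14 omitting control pool 1 and -0.0083 omitting control pool 2. For 8 genes of the splicing machinery the median was 0.16, and -0.0028 omitting control pool 1, 0.33 omitting carnitine pool 1, 0.095 omitting carnitine pool 2 and 0.41 omitting control pool 2.

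Among the 70 brighter members the spread between pools was wider in the control group. The same was not counted over all genes, so that it cannot be tied to these genes. A ratio of at least 1.5 separated the carnitine pools for 4 and the control pools for 14 of the 70 brighter members. Neither control pool was on one side throughout, as control pool 1 was the higher in 34 of the 70, while carnitine pool 2 was above carnitine pool 1 in 46.
Other probe sets of the same genes gave a further reading of each transcript. For 30 genes with several probe sets, 17 further ones lay above the median signal, and 11 of these had the sign of the brightest one. Over all 46 further probe sets, most of them dim, 27 had the same sign. The bright probe sets of DNAJA1, CCT6A and FKBP14 lay close together, and those of DNAJB9 and DNAJB6 apart.

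**Figure D4:**
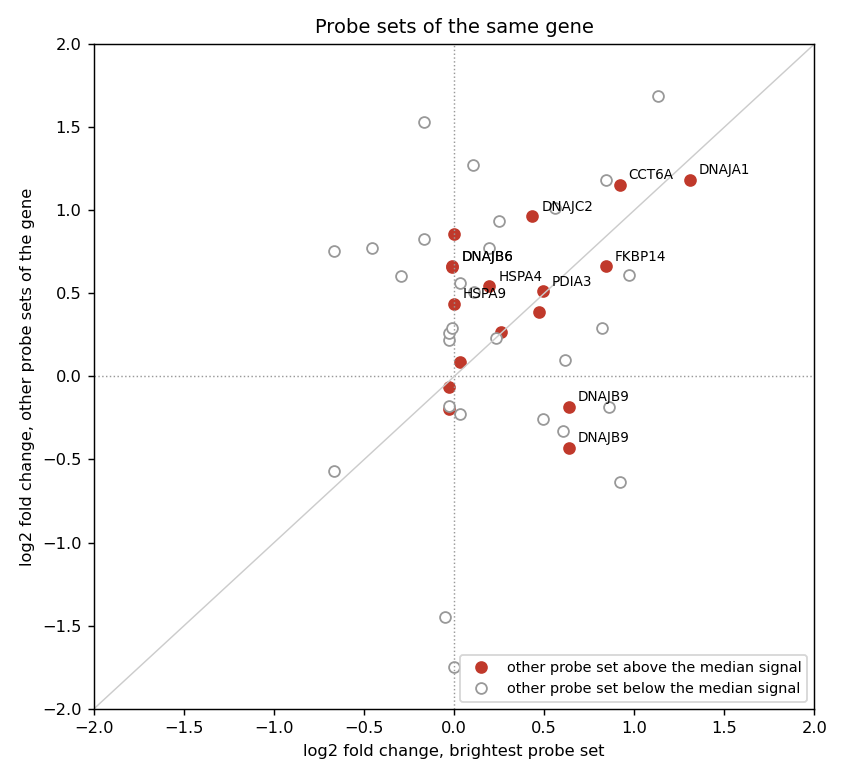
Log2 fold change of the brightest probe set of a gene (x axis) against that of its 46 further probe sets (y axis), with red points for the 17 above the median signal, open points for the 29 below it and a grey line of equality. The bright further probe sets of DNAJA1, CCT6A and FKBP14 lie near the line in the upper right, and the points of DNAJB9 lie below 0 on the y axis.

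Beside these genes stand the 9 genes that the rule leaves out by name and other folding genes. All 9 genes left out had a log2 fold change above 0, beside 49.1% of all genes, with a median of 0.57. Both carnitine pools were higher for 8 of them, beside 21.5% of all genes. At an unadjusted p under 0.05, 5 were higher, beside 6.56% of all genes. Values lay between 0.14 for PDIA4 and 2.26 for HSPH1, while the brighter members lay between -0.99 and 1.31. The genes were left out by name, with earlier results of these data known, so that the gap between the medians is a description.
Of 73 other folding genes listed, 47 had a probe set with 1 symbol. Their median was 0.091, with 33 above and 14 below 0, beside 49.1% of all genes above 0. By unadjusted p in limma (under 0.05) 9 were higher and 1 lower, and 0 were called after adjustment. Beside this stand 6.56% and 3.99% of all genes and 20.0% and 3.75% of the members by unadjusted p. CRELD2, MANF and SDF2L1, of the endoplasmic reticulum, had the smallest p-values among those that were higher, with log2 fold changes of 1.42, 1.06 and 1.18. TRAP1, the HSP90 of mitochondria, was lower in the carnitine group, at 1337 and 1272 in carnitine pools against 1940.2 and 1998 in controls (-0.59 ± 0.18 log2, adjusted p = 0.452). CLPB, a mitochondrial disaggregase, had overlapping pools, at 1350 and 1883 with carnitine against 1732 and 4498 without (-0.81 ± 0.42 log2), with control pool 2 the highest. LONP1, a matrix protease, was at -0.23 log2. Neither CLPB nor LONP1 had an unadjusted p under 0.05. GRPEL1, the exchange factor of HSPA9, was higher, at 2723 and 3285 with carnitine against 2284 and 1961 without (0.50 ± 0.20 log2). HSF1, the transcription factor of the heat shock response, had 736 and 742 with carnitine against 966 and 611 without (-0.055 ± 0.27 log2).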

How the data were processed

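Liver RNA of pigs was measured on 4 single-colour Affymetrix porcine GeneChips, 2 pools per diet. The authors scaled the arrays and deposited MAS5 signals, a background-corrected intensity per probe set on a linear scale, and their processing notes list MAS5 5.0 with GCOS 1.1.2 and Affymetrix Expression Console 1.1. Scanner data were not used here. Genes were named from the platform's annotation, in which 10069 of 23999 probe sets had 1 symbol, 198 several and 13732 none, and probe sets with several or none were not named. The 124 Affymetrix control probe sets were left out. Names of neighbouring genes came from the RefSeq gene table of assembly Sscrofa11.1, and updating symbols through it changed no member. No probe or gene sequence was used.

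Log2 signals, with no pseudocount, were tested with limma 3.58.1 (lmFit, eBayes with a variance trend, R 4.3.3), carnitine minus control, two-sided, with Benjamini-Hochberg adjustment over all 23999 probe sets. Standard errors are the moderated ones of limma. Tables were made with Python 3.11.15. The script was tested on simulated data. The number of arrays limits the precision, and an exact permutation test of 2 against 2 pools cannot go below 0.333.

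The members and the gene lists were chosen with earlier results of these data known. Genes named were up to 4 per family with the smallest p, the brightest per family, the 8 largest differences in each direction among the brighter members whose groups did not overlap, TCP1, STIP1, ST13 and CANX, the genes left out, and 3 other folding genes per direction. Further genes and further probe sets were named after their values were seen: DNAJB6, DNAJB14, DNAJC24, HSPA4, HSPA2, HSPA6, FKBP1A, FKBP4, FKBP6, FKBP7, FKBP10, FKBP11, HSPB3, HSPB8, PPIE, PPIH, PPIL2, CCT7, CCT8, VBP1, CRYAB, GRPEL1 and HSF1. Alternatives were median centring and quantile normalization, an offset of 64, a floor for dim signals (25th percentile), filters on signal (75th percentile and median), the mean over probe sets, updated symbols, leaving out HSPB11 and FKBP15, no variance trend, the methods' one-factor analysis of variance, the pool number as a block, and leaving out each pool.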

Additional observations from a re-analysis of the deposited data

How the results depend on the processing

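With 2 pools per diet, a difference had to be large against the spread of all probe sets to pass the adjusted p, and no member did except DNAJA1 with the pool number as a replicate block (count 1, log2 fold change 1.31, adjusted p = 0.0330), where 106 of all probe sets passed instead of 1. The labels do not say whether pools with the same number were handled together. Deviations of pools with the same number had a correlation of 0.00488 over all probe sets and -0.154 over the members. With so few pools this correlation cannot decide whether the numbers pair them. The block changed no other adjusted call, and FKBP7 and PPIL1 no longer had an unadjusted p under 0.05 with it. Of the 16 members that were higher at an unadjusted p under 0.05, 8 remained without the variance trend and 6 in the methods' analysis of variance, where the counts were 9 and 7, and the count lower was 1 without the trend. HSPA14 was kept in all 15 alternatives that gave it a value, while TCP1 and DNAJB9 were kept in 7 and 6 of 16. Left out 1 pool at a time, the count higher was 5 to 19 and the count lower 2 to 5, and with fewer pairs to compare 33 to 43 members were higher and 15 to 22 lower throughout, beside 29.8% to 36.5% and 33.7% to 38.6% of all probe sets.

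Family medians moved with single pools, over 0.088 to 0.25 for all members, -0.029 to 0.22 for HSP70 and HSP90, 0.27 to 0.58 for DNAJA and DNAJB, -0.20 to -0.011 for DNAJC, 0.16 to 0.65 for the adaptors, -0.054 to 0.25 for BAG, -0.39 to -0.065 for HSPB, -0.13 to 0.14 for HSPD1 and HSPE1, 0.067 to 0.37 for CCT, -0.12 to 0.035 for prefoldin, 0.092 to 0.30 for PDIA and CANX, 0.14 to 0.50 for FKBP and 0.18 to 0.56 for cyclophilins. Other moves were seen for FKBP (0.098 with the filter at the median, 0.12 at the 75th percentile, 0.37 without HSPB11 and FKBP15), HSP70 and HSP90 (0.20) and DNAJC (-0.054) with the filter at the median, and HSPB (-0.14 with the floor, -0.18 with the offset, -0.053 with the mean over probe sets), prefoldin (-0.15) and cyclophilins (0.56) with the filter at the 75th percentile, which leaves fewer genes, and BAG (0.50) with the mean over probe sets. With the mean over probe sets the DNAJC median was 0.12. The cause of these moves was not tested.

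Of 51 members named by the rule, 35 kept their sign under every alternative and 16 did not. Quantile normalization turned CANX (0.035) and HSPA9 (0.030), centring turned CANX (0.012), DNAJC8 (0.038) and HSPA9 (0.036), and the mean over probe sets turned BAG6 (0.73), CANX (0.0017), DNAJC14 (0.16), DNAJC8 (0.43) and HSPB6 (0.16). Leaving out 1 pool gave ranges of -0.036 to 0.25 for BAG5, -0.056 to 0.0037 for CANX, -0.13 to 0.12 for DNAJC8, -0.050 to 0.044 for HSPA9, -0.42 to 0.042 for FKBP2, -0.052 to 0.33 for HSPD1, -0.15 to 0.27 for PFDN4, -0.11 to 0.33 for BAG1, -0.14 to 0.67 for BAG3, -0.39 to 0.13 for HSPE1, -0.035 to 0.76 for PFDN1, -0.36 to 0.063 for ST13 and -0.061 to 0.26 for DNAJA3.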
